A study of Mus musculus with 2 samples.

Results

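The genes of oxidative phosphorylation were followed through single-cell counts of mouse hearts under pressure overload. Members were chosen by symbol. From the mitochondrial genome they were the mt- genes for subunits of complexes I, III, IV and V. From the nucleus they were Sdha, Sdhb, Sdhc and Sdhd, and names beginning Ndufa, Ndufb, Ndufc, Ndufs, Ndufv, Uqcr, Cox4 to Cox8 and Atp5. The rule found 108 of 32589 gene identifiers, 13 of them in the mitochondrial genome and 95 in the nucleus. The nuclear members comprised 45 of complex I, 4 of complex II, 8 of complex III, 20 of complex IV and 18 of complex V. By role, 85 were subunits (22 core and 63 accessory), 9 were assembly factors and 1, Ndufb1-ps, carries a pseudogene name. Atp5o is listed under 2 identifiers, one of which spans a long readthrough model.

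Oxidative phosphorylation couples electron transport to ATP synthesis in the inner mitochondrial membrane. Complexes I and II pass electrons from NADH and succinate to coenzyme Q, complex III passes them to cytochrome c, complex IV reduces oxygen, and complex V uses the resulting proton gradient to make ATP. Complex II is built from nuclear genes alone, whereas the other complexes need subunits from both genomes, and heart muscle is among the tissues richest in all of them.

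Both libraries came from hypertrophied left ventricle taken 6 weeks after transverse aortic constriction (TAC), an operation that constricts the aortic arch and so raises the pressure against which the ventricle pumps. The labels call one library wild-type (WT_TAC) and the other a p53 knockout (p53KO_TAC). Each mixed 3 hearts, whose ages are not given, there was 1 library per genotype, and no unoperated heart was analysed here. No difference between the libraries could therefore be tested, and the 95% intervals below cover counting error only. The labels do not say which cells the knockout reaches or which part of Trp53 is deleted. Trp53 was at 28.5 CPM in cardiomyocyte-like cells of the wild-type-labelled library and 26.7 CPM in those of the p53-knockout-labelled library, and it was higher in the latter in 7 of the 8 other cell classes. Counts near the 3′ end check a deletion only where they fall within it, so genotypes are given as labelled throughout. Xist was at 3.22 and 615 CPM and 4 Y-linked genes at 537 and 7.88 CPM in the same cells, so sex and labelled genotype cannot be told apart.

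The files held 16060 barcodes and 18897913 UMIs (unique molecular identifiers, each one captured RNA) for the wild-type-labelled library, and 10118 barcodes and 20918824 UMIs for the other. The libraries shared 105 barcodes. After filtering, 14763 and 9298 cells remained. The labels name cardiomyocytes as the cell type, but clusters led by markers of fibroblasts, endothelium and leukocytes held most cells, and 4847 and 880 cells were cardiomyocyte-like by Myh6, Tnnt2, Ttn and other markers. They fell into 3 clusters that the libraries filled unequally. Cluster 0 held 3992 cells of the wild-type-labelled library and 234 of the other, cluster 8 held 847 and 325, and cluster 14 held 8 and 321. Cluster 14 cells were also deep, with a median of 3472 UMIs in the p53-knockout-labelled library, against 781 in cluster 0 and 1737 in cluster 8 there.

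Levels of members are given as CPM of nuclear-encoded UMIs, that is UMIs of a gene scaled by the total of nuclear genes only, so that mt- UMIs cannot dilute nuclear members. Cardiomyocyte-like cells were split at 10% mt- UMIs. Above the split lay 15.7% (14.7 to 16.8, exact Clopper-Pearson) of the cells in the wild-type-labelled library and 28.6% (25.7 to 31.7) in the other. Among the 3539 and 368 cells of 500 to 1500 UMIs, with median depths of 831 and 842.5 UMIs, the shares were 15.8% (14.6 to 17.0) and 15.5% (11.9 to 19.6), intervals that overlap. That window kept 2 and 63 cells of cluster 14 and 662 and 113 of cluster 8. Within 2 percentage points of the split were 77 and 34 cells below and 85 and 23 cells above. Of the 762 and 252 cells above it, 692 and 246 belonged to cluster 8, which Nppa, Myl4, Mb and Actc1 led.

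Nuclear-encoded members were far higher in the cells above the split, although the split used mt- UMIs only. In the wild-type-labelled library their sum rose from 12624 CPM at or under 10% to 81215 CPM above it, a ratio of 6.43. In the p53-knockout-labelled library it rose from 8829 to 75878 CPM, a ratio of 8.59. Of the members with at least 20 UMIs, 82 of 94 and 84 of 89 were at least 2-fold higher above the split, against 17.6% and 26.3% of all nuclear genes. At least 2-fold lower were 1 (Cox7b2, with 24 UMIs in all) and 0 members, against 16.8% and 23.1% of all genes. The median member was 2.70 and 3.22 higher on the log2 scale, with all genes at -0.06 and 0.04.

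The increase was graded. Across bins of mt- share from 0 to 1% up to 30 to 50%, nuclear members climbed from 9086 to 115508 CPM in the wild-type-labelled library and from 6564 to 101497 CPM in the other. They rose at every step in both libraries. The 85 genes of cytosolic ribosomal proteins, which have no part in respiration, were also higher above the split, 5.32-fold and 8.01-fold. The nuclear RNA Malat1 was at 0.286 and 0.125 times its level below the split, and Neat1, another nuclear RNA, at 0.268 and 0.119 times. Myh6, the main myosin heavy chain of the adult mouse heart, was at 1.05 and 0.645 times. How far the ratio of cytoplasmic to nuclear RNA in each barcode entered the rise of the members was not tested. The mt- mRNAs themselves were 14.6-fold and 25.8-fold higher, which the split fixes.

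**Figure D1:**
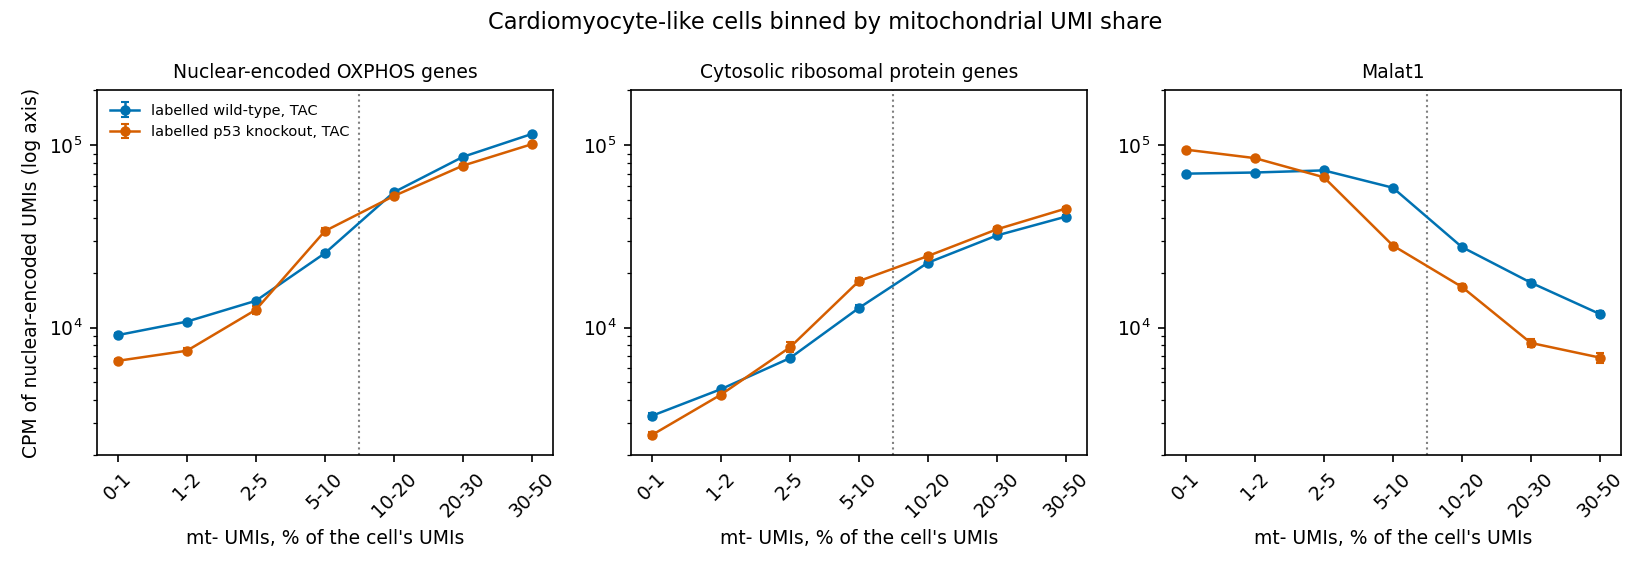
Levels in cardiomyocyte-like cells binned by the percentage of mt- UMIs (x axis), as CPM of nuclear-encoded UMIs on a log axis (y axis), for the sum of nuclear OXPHOS members, the sum of 85 ribosomal protein genes, and Malat1. Points are sums over the cells of a bin in each library, bars are exact Poisson 95% intervals, and the dotted line is the 10% split. Nuclear OXPHOS genes rise from 9086 to 115508 CPM in the wild-type-labelled library while Malat1 falls.

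The complexes did not rise equally across the split. Complex IV was highest, at 7.95-fold and 11.3-fold in the wild-type-labelled and p53-knockout-labelled libraries. Complex III followed at 7.53-fold and 9.13-fold, complex V stood at 6.31-fold and 8.74-fold, and complex I at 5.82-fold and 7.70-fold. Complex II, which also works in the citric acid cycle, had the lowest ratios of the complexes, 2.69-fold and 3.35-fold. Members classed as core subunits rose less (5.02-fold and 6.30-fold) than accessory subunits (7.39-fold and 10.3-fold). All 4 members of complex II were classed as core and 19 of 20 of complex IV as accessory, so role and complex were not separated. The 9 members classed as assembly factors, which help build the complexes, were 8 of complex I and Cox7a2l of complex IV. Together they stood at 1.64-fold and 2.46-fold, with 4 and 6 of 9 at least 2-fold higher beside 17.6% and 26.3% of all genes. Without Ndufaf4 the other 8 stood at 2.81-fold and 3.71-fold. Singly they ran from 1.02-fold (Ndufaf6) to 5.31-fold (Ndufaf3) and from 0.682-fold (Ndufaf6) to 12.3-fold (Ndufaf8). Cox7a2l was at 4.62-fold and 5.88-fold, and the sum without it as well was not taken.

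Single members varied widely within a complex, and not in the order of these sums. Ndufa1, a small accessory subunit of complex I, went from 44.7 to 580 CPM and from 35.1 to 683 CPM. Cox6a2, the heart and muscle isoform of a complex IV subunit, went from 332 to 3604 CPM and from 160 to 2706 CPM. Uqcrfs1, the Rieske iron-sulfur protein of complex III, went from 94.8 to 966 CPM and from 64.1 to 1023 CPM. All 3 were over 10-fold higher above the split in both libraries. In contrast, Ndufs1, the large iron-sulfur subunit of complex I, went only from 244 to 405 CPM and from 222 to 387 CPM. Ndufs4, a complex I subunit needed for its stability, went from 240 to 400 CPM and from 198 to 305 CPM. Sdha, the catalytic flavoprotein of complex II, went from 302 to 619 CPM and from 284 to 628 CPM. Ndufaf4, a complex I assembly factor, was lower above the split in the wild-type-labelled library, at 213 and 116 CPM (0.546 times). In the other library it was only slightly lower, at 115 and 100.2 CPM (0.876 times).

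The members that rose least tended to be long genes. Ndufs4 spans 100.5 kb (chromosome 13, 114287795 to 114388258, GRCm38) and Ndufs1 33.2 kb (chromosome 1, 63143596 to 63176833), whereas Cox6a2 spans 0.953 kb (chromosome 7, 128205435 to 128206387). Members of at least 20 kb had a median ratio of 1.98 (15 members) and 2.84 (13 members), and shorter ones 6.96 (79 members) and 9.93 (76 members). Across members, Spearman's rho between gene span and ratio was -0.46 (94 members) and -0.54 (89 members). The other nuclear genes showed the same sign, at -0.28 and -0.44, so the relation is not particular to the members. Genes of one library share its cells and depth and are not independent replicates. Of 12 members under 2-fold in the wild-type-labelled library, 8 were at least 20 kb long, as were 3 of 5 in the other library. Cox6a1, the ubiquitous partner of Cox6a2, was a short exception there at 1.57-fold.

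**Figure D2:**
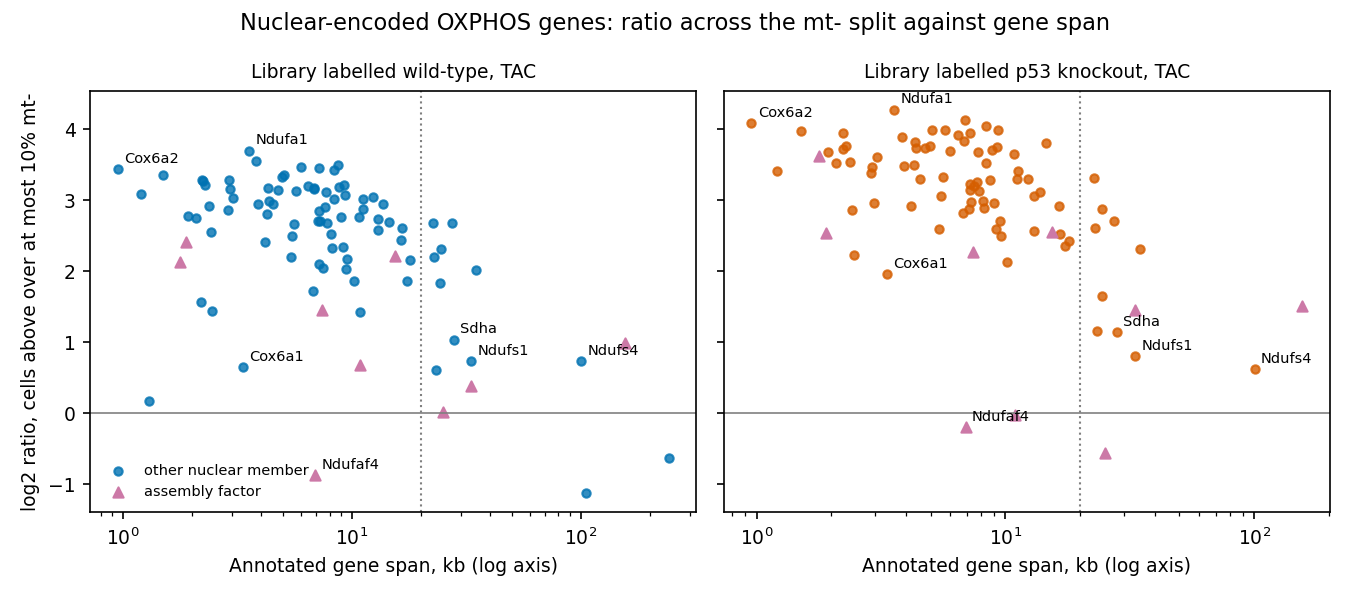
Annotated gene span in kb (x axis, log) against the log2 ratio of cells above over cells at or under 10% mt- UMIs (y axis), 1 point per nuclear OXPHOS member with at least 20 UMIs, in each library. Triangles are assembly factors and the dotted line marks 20 kb. Most short members lie above 2, whereas Ndufs1 and Ndufs4 lie at 0.73 and 0.74 in the wild-type-labelled library.

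Between the libraries, cardiomyocyte-like cells as a whole had similar totals of nuclear members. The sum was 21008 CPM in the wild-type-labelled library and 23185 CPM in the p53-knockout-labelled library, a log2 ratio (here always p53 knockout over wild-type) of 0.14 (0.13 to 0.16). No member was 2-fold higher, against 4.46% of all genes, and 2 were 2-fold lower, against 15.4%. Those 2 were Cox6b2, with 47 and 2 UMIs, and the readthrough identifier of Atp5o, with 78 and 9 UMIs. Of 94 members, 63 lay above 0, with a median of 0.09 where all genes had -0.25. Without cluster 8 the log2 ratio was -0.76, and without cluster 14 it was 1.25. Among cells gated on marker UMIs instead of clusters it was -0.20, and among cells of 500 to 1500 UMIs 0.01.

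In cells at or under the split, members were lower in the p53-knockout-labelled library. Their sum was 12624 against 8829 CPM, a log2 ratio of -0.52 (-0.54 to -0.49). Only 3 of 94 members lay above 0, the median was -0.56 and that of all genes -0.31. None was 2-fold higher (all genes 3.62%) and 12 were 2-fold lower (all genes 18.3%), among them Cox7a1, Cox6a2, Cox8b, Cox7b and Ndufs8. Complex IV had the lowest ratio, -0.71, followed by complex I with -0.51, complex V with -0.46, complex III with -0.42 and complex II with -0.28. Without cluster 14, 309 cells remained in the p53-knockout-labelled library and the sum turned to 12637 against 14716 CPM, 0.22 higher. Then 62 of 94 members lay above 0, with 2 higher by 2-fold (all genes 11.3%) and 3 lower (all genes 15.7%).

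Within single clusters the order was again different. In cluster 0 the nuclear members were at 12753 CPM in the wild-type-labelled library and 7785 CPM in the other. In cluster 8 they were at 77689 and 70060 CPM, and in its cells at or under the split at 29063 and 34652 CPM. Cluster 14 of the p53-knockout-labelled library stood at 7466 CPM, close to cluster 0 of that library. Once cluster 14 was left out, cluster 8 gave 155 of 4077 cells under the split in the wild-type-labelled library and 79 of 309 in the other. Nppa, which encodes the atrial natriuretic peptide and is induced in loaded ventricles, was at 246 and 20382 CPM in cluster 8. The atrial genes Myl7 and Sln were at 9 and 501 UMIs and at 3 and 246 UMIs in all cardiomyocyte-like cells. At least 1 UMI of an atrial marker was found in 27 of 4847 and 73 of 880 cells. Without those cells the log2 ratio of the members was 0.06 in all cells and -0.58 under the split, and what part those cells had in the remainder was not tested.

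Above the split, where cluster 8 held nearly all cells of both libraries, the members differed little. Their sum was 81215 and 75878 CPM, a log2 ratio of -0.10 (-0.12 to -0.08). Of 89 members, 34 lay above 0, the median was -0.10 and that of all genes -0.15. No member was 2-fold higher (all genes 5.85%) and 1 was 2-fold lower (all genes 12.8%), the assembly factor Ndufaf3 with 42 and 13 UMIs. Complex V was at 0.01 (-0.02 to 0.05) and complex II at 0.04 (-0.07 to 0.15), intervals that include 0, while complex IV was at -0.20 (-0.23 to -0.16). Splitting at 5% instead gave 0.05 for all nuclear members, so the sign above the split is not stable.

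**Figure D3:**
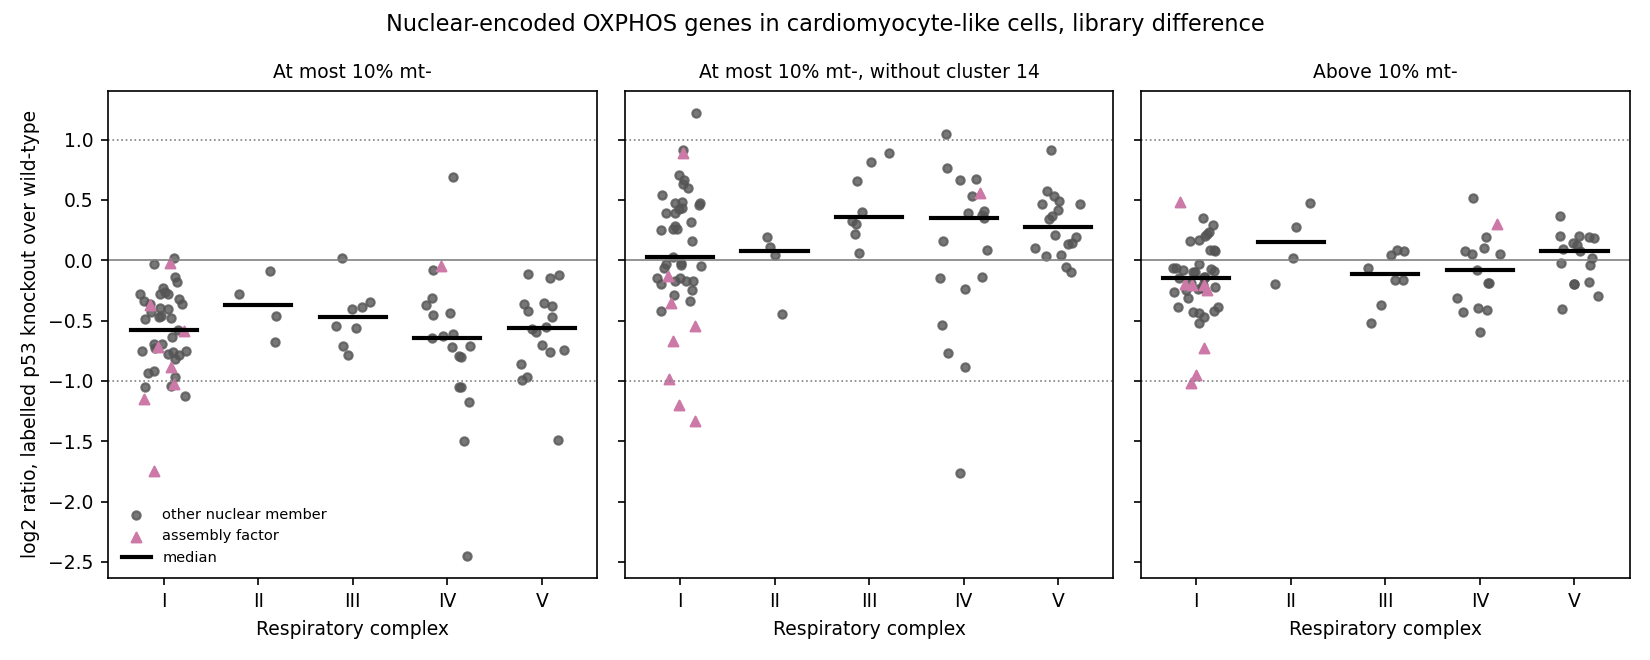
log2 ratios of the p53-knockout-labelled library over the wild-type-labelled one (y axis) for nuclear OXPHOS members by complex (x axis), in cardiomyocyte-like cells at or under 10% mt- UMIs, the same cells without cluster 14, and cells above 10%. Each point is a member with at least 20 UMIs over both libraries, triangles are assembly factors, black bars are medians per complex and dotted lines mark 2-fold. The first panel lies mostly under 0, with a median of -0.56 over all members, and the second does not, with 0.21.

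Among complex I members, Ndufa1 had the highest ratio in all cardiomyocyte-like cells, 110.2 and 174 CPM (0.66, 0.48 to 0.84). Ndufaf4 had the lowest, 201 and 112 CPM (-0.84, -1.05 to -0.65), and it was also at -1.20 without cluster 14 under the split. Ndufs1 and Ndufs4, the subunits with the most UMIs, were at 264 and 257 CPM and at 260 and 221 CPM. Ndufa3, an accessory subunit, was at 240.2 and 254 CPM. Ndufaf6 and Ndufaf2, both assembly factors, were at 40.7 and 28.9 CPM and at 27.0 and 20.1 CPM. The 9 assembly factors together stood at -0.37 (-0.49 to -0.26), where nuclear subunits stood at 0.15 (0.14 to 0.17). Without Ndufaf4 the other 8 stood at -0.07 (-0.22 to 0.07), an interval that includes 0. Among these, Cox7a2l was at 1.37 times its level in the wild-type-labelled library. Each of the other Ndufaf genes was lower, from 0.588 (Ndufaf3) to 0.907 (Ndufaf7) times. That range includes the medians of nuclear genes outside the members, 0.821 times for those of at least 20 kb and 0.884 for shorter ones. Without cluster 14 under the split, 2 of 9 assembly factors lay above 0 and their median was -0.54, whereas 60 of 84 subunits did and theirs was 0.26. The share of all genes above 0 was not counted there.

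Complexes II and III differed by less than 2-fold for every member with at least 20 UMIs. Sdha was at 341 and 358 CPM, Sdhb, the iron-sulfur subunit, at 301 and 296 CPM, and Sdhc, a membrane anchor, at 250.5 and 245 CPM. The interval of each of these 3 ratios included 0. Sdhd, the other anchor, was at 88.0 and 109 CPM (0.32, 0.09 to 0.53). In complex III, Uqcrq and Uqcrh, small accessory subunits, were at 347 and 324 CPM and at 294 and 353 CPM. Uqcr11, another small subunit, was at 290.1 and 376 CPM (0.38, 0.26 to 0.49), and Uqcrfs1 at 201 and 269 CPM (0.42, 0.28 to 0.56).

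In complex V, 15 of 18 members lay above 0 in all cardiomyocyte-like cells. Atp5g3, which encodes the c subunit of the rotor ring, had the highest ratio, 399 and 614 CPM (0.62, 0.53 to 0.72), and was also higher above the split (1644 and 2121 CPM, 0.37). The catalytic alpha and beta subunits Atp5a1 and Atp5b were at 718 and 922 CPM and at 749 and 825 CPM. Atp5h, of the peripheral stalk, was lowest among those with at least 100 UMIs, at 384 and 357 CPM (-0.10, -0.22 to 0.01). Under the split, Atp5h had 222 and 111 CPM, whereas Atp5a1 had 480 and 444 CPM.

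Complex IV held the nuclear member with the most UMIs in the wild-type-labelled library, Cox4i1, and members on both sides of 0. Cox4i1, a subunit of every tissue, was at 851 and 880.2 CPM, Cox6a2 at 732 and 705 CPM, and Ndufa4, now counted to complex IV, at 607 and 641 CPM. None of these ratios had an interval that left out 0. Cox5a, which binds a regulator of the complex, was highest at 384 and 561 CPM (0.55, 0.45 to 0.64), and Cox7a2l, a factor that joins complexes III and IV, was at 79.8 and 109 CPM (0.46, 0.23 to 0.68). Cox7a1, the heart and muscle isoform of the dimer interface, was the lowest of its complex among members with at least 100 UMIs, at 326 and 237 CPM (-0.46, -0.60 to -0.32). It was lower on both sides of the split, at 190 and 66.9 CPM (-1.50) under it and at 1304 and 861 CPM (-0.60, -0.77 to -0.43) above it. Without cluster 14 under the split it stayed at -0.54, on the side opposite to its complex.

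Cox7a1 also changed against its partner. Heart and skeletal muscle use Cox6a2, Cox7a1 and Cox8b beside the liver-type or ubiquitous Cox6a1, Cox7a2 and Cox8a. The Cox7a1 share of its pair was 61.9% and 47.9% in all cardiomyocyte-like cells, 63.1% and 42.9% under the split, and 60.6% and 49.5% above it. By cluster it was 62.6% and 35.3% in cluster 0 (12 Cox7a1 UMIs in the p53-knockout-labelled library), 61.2% and 49.7% in cluster 8, and 41.1% in cluster 14 of that library. Without cluster 14 under the split it was 63.2% and 47.5%. Cox7a2 was at 201 and 258 CPM (0.36, 0.22 to 0.50) in all cardiomyocyte-like cells. The fall was not particular to Cox7a1 or to these cells. The Cox6a2 and Cox8b shares were 85.7% and 86.9% and 65.5% and 66.4% in all cardiomyocyte-like cells, but each was lower in the p53-knockout-labelled library on both sides of the split, with intervals apart above it (94.4 to 96.0 and 89.8 to 92.8 for Cox6a2, 77.8 to 82.5 and 70.4 to 77.6 for Cox8b). Under the split without cluster 14 they were 74.4% and 77.4% and 51.9% and 53.5%. In the 8 other classes the shares of all 3 heart isoforms were lower in the p53-knockout-labelled library in 8 of 8, with intervals apart in 6 of 8 for each. The Cox7a1 share ran there from 51.2% to 69.2% and from 18.1% to 35.9%. Cardiomyocyte markers of these classes, given further on, were also lower in the p53-knockout-labelled library. Their part in the lower shares was not tested, so these classes do not show a change of isoform use within their own cells. Both Cox6a2 and Cox8b took larger shares above the split than under it, Cox6a2 from 74.4% to 95.3% and from 70.9% to 91.4%, and Cox8b from 51.8% to 80.3% and from 45.9% to 74.1%, but Cox7a1 in the wild-type-labelled library did not.

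The promoters of the Cox7a and Cox8 pairs are shown first, since their heart isoforms differed in how they moved across the split, followed by those of Uqcr11 and Atp5k, which hold motifs known from respiratory genes and were chosen for them with their values known. Sequences run from 250 bases before to 50 bases after the gene start (RefSeq, GRCm38.p6), 5′ to 3′ on the gene's strand, and capitals mark motif matches. Cox7a1 lies at chr7:30183921-30184220 (plus), Cox7a2 at chr9:79759804-79760103 (minus), Cox8b at chr7:140900397-140900696 (minus), Cox8a at chr19:7217567-7217866 (minus), Uqcr11 at chr10:80406772-80407071 (minus) and Atp5k at chr5:108434350-108434649 (minus).
Cox7a1: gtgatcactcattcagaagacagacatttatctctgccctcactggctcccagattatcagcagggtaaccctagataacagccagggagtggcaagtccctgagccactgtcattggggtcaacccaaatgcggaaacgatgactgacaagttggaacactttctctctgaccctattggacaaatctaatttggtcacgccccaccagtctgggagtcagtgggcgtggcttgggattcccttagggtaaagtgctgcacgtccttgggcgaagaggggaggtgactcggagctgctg
Cox7a2: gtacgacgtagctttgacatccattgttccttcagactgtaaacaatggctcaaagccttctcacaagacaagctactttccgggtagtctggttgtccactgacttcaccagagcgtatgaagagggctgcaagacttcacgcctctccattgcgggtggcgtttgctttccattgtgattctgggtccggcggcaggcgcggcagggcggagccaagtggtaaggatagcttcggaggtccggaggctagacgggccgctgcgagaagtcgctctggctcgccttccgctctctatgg
Cox8b: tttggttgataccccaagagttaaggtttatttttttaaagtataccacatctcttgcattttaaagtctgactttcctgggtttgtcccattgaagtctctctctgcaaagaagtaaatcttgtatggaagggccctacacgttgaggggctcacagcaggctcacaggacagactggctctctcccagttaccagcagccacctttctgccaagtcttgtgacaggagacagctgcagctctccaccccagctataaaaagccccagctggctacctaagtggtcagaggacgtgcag
Cox8a: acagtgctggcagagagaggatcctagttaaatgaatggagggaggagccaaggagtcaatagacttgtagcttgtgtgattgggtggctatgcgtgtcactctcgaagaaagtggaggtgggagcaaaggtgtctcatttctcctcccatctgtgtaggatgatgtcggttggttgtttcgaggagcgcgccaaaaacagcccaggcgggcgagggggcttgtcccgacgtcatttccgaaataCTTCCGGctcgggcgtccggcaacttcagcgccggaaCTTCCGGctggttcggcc
Uqcr11: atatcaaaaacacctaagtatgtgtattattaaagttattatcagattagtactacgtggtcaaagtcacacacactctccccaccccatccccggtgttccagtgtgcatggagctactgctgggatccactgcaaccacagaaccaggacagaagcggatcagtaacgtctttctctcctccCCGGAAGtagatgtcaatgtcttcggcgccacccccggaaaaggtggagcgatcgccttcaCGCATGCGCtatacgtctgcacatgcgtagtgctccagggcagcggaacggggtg
Atp5k: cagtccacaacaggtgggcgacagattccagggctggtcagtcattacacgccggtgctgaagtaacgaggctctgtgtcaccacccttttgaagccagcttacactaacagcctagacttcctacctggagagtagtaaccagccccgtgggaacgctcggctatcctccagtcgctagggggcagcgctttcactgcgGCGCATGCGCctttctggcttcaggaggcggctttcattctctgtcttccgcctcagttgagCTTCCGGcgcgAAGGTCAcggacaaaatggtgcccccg

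Exact words were searched on both strands in the promoters of 76 nuclear members that the table held, beside 27025 genes. The NRF1 word GCGCATGCG, which overlaps its own reverse complement, was in 13.2% of member promoters and 1.81% of all. The ETS word CCGGAAG, bound by GABP among others, was in 23.7% and 9.12%, and the YY1 word AAGATGGC in 13.2% and 2.88%. The ERR word AAGGTCA was in 10.5% and 4.66%. The MEF2 word TAAAAATA, of muscle genes, was in 0 member promoters and in 2.71% of all. Member promoters had a median GC content of 58.5%, against 52.7% for all, and its part in these shares was not tested. Both heart isoforms shown, Cox7a1 and Cox8b, held none of these words, nor did Cox7a2, whereas Cox8a held 2 ETS words. Uqcr11 held an NRF1 and an ETS word, and Atp5k held NRF1 words on both strands with ETS and ERR words downstream. Across the split, the genes shown with such words had ratios of 11.7 and 14.8 (Uqcr11), 8.48 and 10.6 (Atp5k) and 2.71 and 4.68 (Cox8a). Those without had 6.88 and 12.8 (Cox7a1), 7.67 and 9.82 (Cox7a2) and 10.2 and 15.7 (Cox8b). These few genes were picked, so they cannot show whether the rise follows the words.

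Outside cardiomyocytes a pair of isoforms marked pericyte-like cells, the mural cells of capillaries. Cox4i2, the hypoxia-linked isoform of Cox4i1, was at 126 and 88.9 CPM there and made up 26.2% and 37.9% of its pair. Ndufa4l2, a paralog of Ndufa4 also linked to hypoxia, was at 194 and 151 CPM and made up 43.3% and 66.3% of its pair. Pericyte-like cells had the highest level of both genes among the 9 classes in both libraries. In fibroblast-like cells Ndufa4l2 made up 6.48% (61 UMIs) and 29.3% (194 UMIs) of its pair, at 17.2 and 43.4 CPM. The libraries filled different fibroblast clusters: cluster 1 held 3132 and 209 cells, and cluster 3 held 118 and 1971. Ndufa4l2 had 58 UMIs and 1 UMI in cluster 1 and 3 and 193 UMIs in cluster 3, so no difference within a cluster could be read. The 8 pericyte markers stood at 412 and 545 CPM in these fibroblasts, and their part in the difference was not tested. Cox6b2, known from testis, was highest in mesothelial-like cells, with only 6 and 11 UMIs, and Cox8c had no UMI in cardiomyocyte-like cells.

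**Figure D4:**
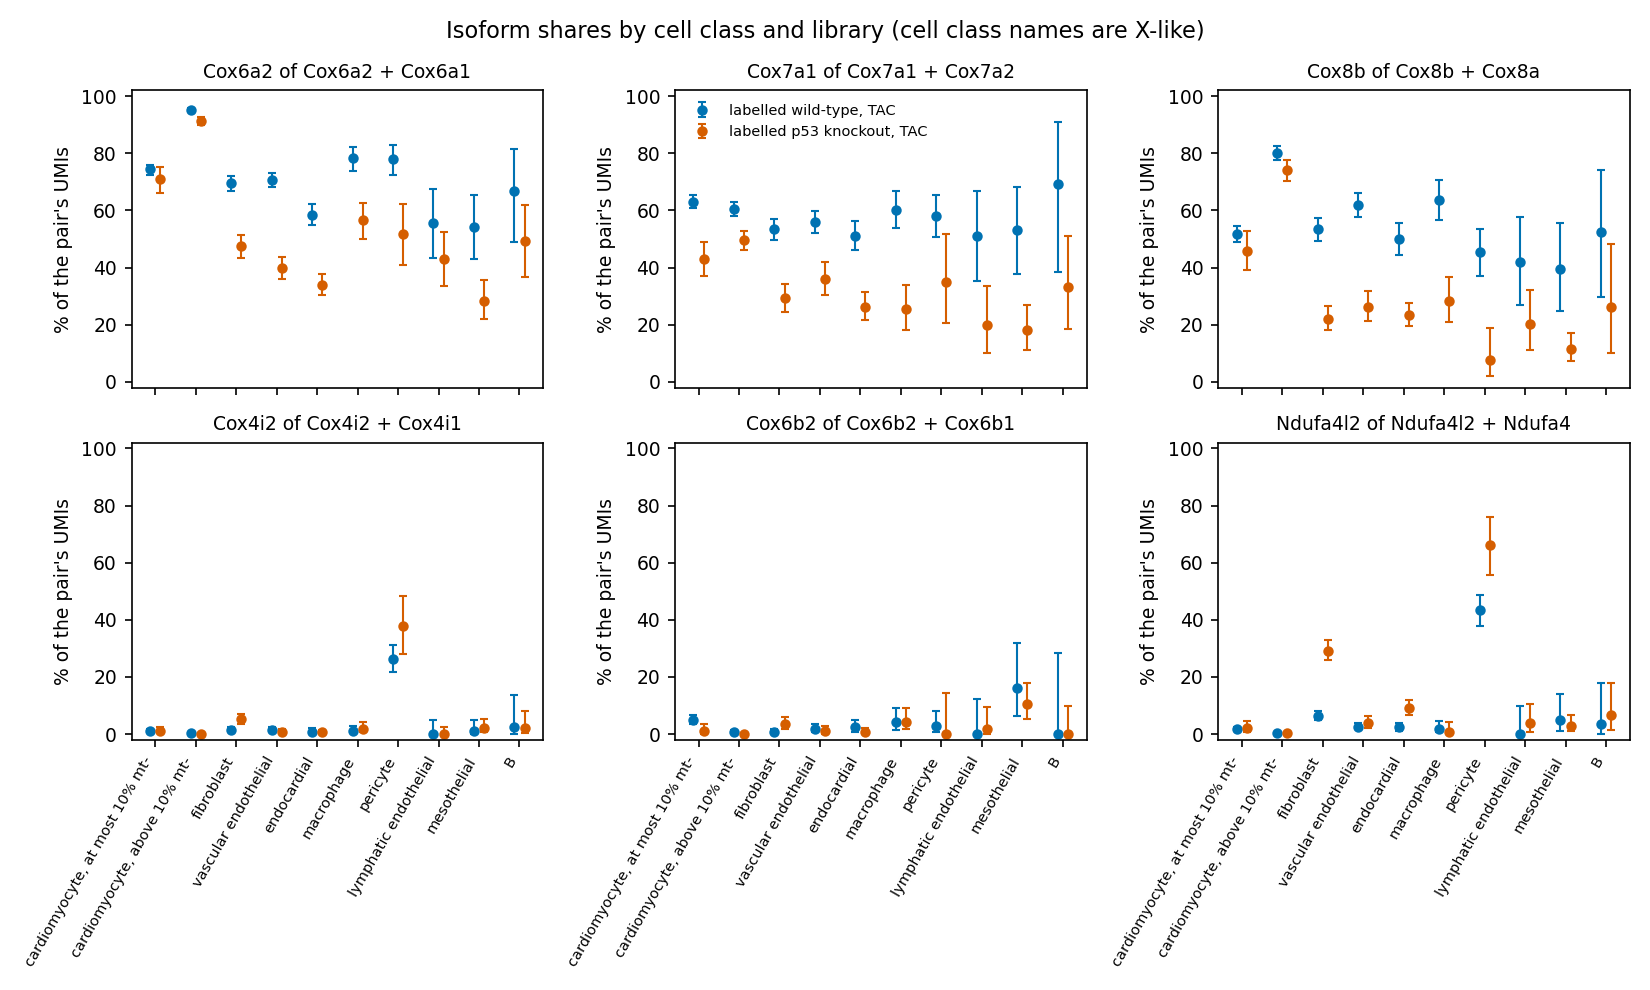
Share of the first-named isoform among the UMIs of its pair (y axis, %) in cardiomyocyte-like cells on each side of the 10% split and in 8 other cell classes (x axis), for 6 isoform pairs and both libraries. Bars are exact 95% Clopper-Pearson intervals. Cox7a1 is lower in the p53-knockout-labelled library on both sides of the split, and Cox4i2 and Ndufa4l2 stand out in pericyte-like cells at 26.2% and 43.3% in the wild-type-labelled library.

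The heart isoforms were also counted outside cardiomyocyte-like cells, and how much of that RNA came from other cells was not tested. Cox6a2, Cox7a1 and Cox8b together were at 388 to 621 CPM in the 8 other classes of the wild-type-labelled library, against 639 CPM in its cardiomyocyte-like cells under the split. In the p53-knockout-labelled library the same values were 94.7 to 158 and 283 CPM. Thinned to 500 UMIs per cell, 14.1% of cardiomyocyte-like cells under the split and 14.003% of vascular endothelial-like cells in the wild-type-labelled library had a Cox6a2 UMI (27.8% and 21.0% unthinned; median depths 972 and 795.5 UMIs), so that share is at background. In the p53-knockout-labelled library the thinned shares were 7.96% in cardiomyocyte-like cells under the split and 3.48% in vascular endothelial-like cells. Unthinned they were 21.3% and 8.93%, at median depths of 1510 and 1414 UMIs. Above the split 65.2% of cells in the wild-type-labelled library had one. Per 100 Myh6 UMIs there were 4.999 and 2.17 heart isoform UMIs under the split, 45.7 and 52.9 above it, and 23.2 to 35.9 and 32.9 to 47.5 in other classes.

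Nuclear members were lower in the p53-knockout-labelled library in each of the 8 other classes. Their log2 ratios ran from -0.67 in mesothelial-like to -1.04 in vascular endothelial-like cells, where the sums were 11401 and 5533 CPM. Some of these classes were made of clusters that the libraries filled unequally, endocardial-like cells of cluster 6 (1543 and 261 cells) and cluster 7 (31 and 1306), fibroblast-like cells of clusters 1 and 3, and vascular endothelial-like cells of cluster 2 (2118 and 173), cluster 5 (734 and 1201) and cluster 10 (126 and 697). Within each of these 7 clusters the nuclear members were also lower, by log2 ratios from -0.48 in cluster 7 to -1.01 in cluster 5. The range over the classes was 8845 to 11401 CPM in the wild-type-labelled library and 4874 to 7012 CPM in the other. The 10 cardiomyocyte markers moved with it in the same classes, at 7902 to 10644 and 1806 to 2629 CPM, log2 ratios of -2.35 to -1.73. Their part in the difference was not tested. The mt- mRNAs did not follow: 5 of 8 classes were lower, and the ratios ran from -0.42 in pericyte-like to 0.55 in mesothelial-like cells. By single genes, 78 and 81 of 95 nuclear members had their highest level in cardiomyocyte-like cells. Cox4i2 and Ndufa4l2 were among the exceptions, as was Cox6a1, highest in mesothelial-like cells at 185 and 133 CPM. These counts used the level of all cardiomyocyte-like cells, those above the split included. The share of all genes with their highest level in that class was not taken, so the counts cannot be set against it.

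The balance of the genomes differed between classes. Mitochondrial UMIs per nuclear member UMI were 2.96 and 3.93 in cardiomyocyte-like cells, 7.17 and 13.3 in endocardial-like cells and 2.55 and 3.48 in pericyte-like cells. The value was higher in the p53-knockout-labelled library in these classes, but in cardiomyocyte-like cells under the split it was lower, 1.86 and 1.64, and above the split it was 4.20 and 4.91. In all cardiomyocyte-like cells complex IV had 6.36 and 8.30 mitochondrial UMIs per nuclear one, and complex V 0.946 and 1.42. The mt- mRNAs as a whole were at 62247 and 91069 CPM in all cardiomyocyte-like cells (0.55, 0.54 to 0.56), and without cells outside 500 to 1500 UMIs at -0.04.

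The mt- mRNAs are cut from long transcripts of the mitochondrial genome, and mt-Co1 and mt-Co3 gave the most UMIs in both libraries. Among the 13, mt-Co1 made up 24.97% and 23.0% of UMIs in cardiomyocyte-like cells, and mt-Co3, also of complex IV, 23.1% and 21.99%. mt-Atp6, of complex V, made up 8.74% and 10.6%, and mt-Cytb, the complex III subunit, 8.19% and 9.15%. mt-Nd3, of complex I, made up 3.77% and 2.93%. These shifts had the same sign in each of the 9 classes. mt-Atp6 and mt-Cytb took larger shares in the p53-knockout-labelled library in 9 of 9 classes, and mt-Co1, mt-Co3, mt-Nd3 and mt-Nd6 smaller shares in 9 of 9. The intervals of the libraries were apart for mt-Atp6 and mt-Cytb in 8 classes, for mt-Co1 and mt-Nd3 in 7, for mt-Co3 in 4 and for mt-Nd6 in 2. In cardiomyocyte-like cells under the split, mt-Co3 (21.1% and 21.3%) and mt-Nd6 (0.113% and 0.147%) went the other way, with intervals that overlap. Classes of a library share its preparation and any free RNA, so they are not 9 separate observations.

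The other mt- mRNAs moved less evenly. mt-Nd1 was higher in 6 of 9 classes, mt-Nd2 in 5, mt-Nd4 in 6 and mt-Nd5 in 5, while mt-Co2, at 10.3% and 10.2% in cardiomyocyte-like cells, was lower in 7. mt-Nd4l and mt-Atp8, which overlap mt-Nd4 and mt-Atp6 on the genome, gave under 1% each, and their reads cannot be fully told apart from those of their neighbours. mt-Nd6, the one mRNA of the light strand, had 239 and 78 UMIs.

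**Figure D5:**
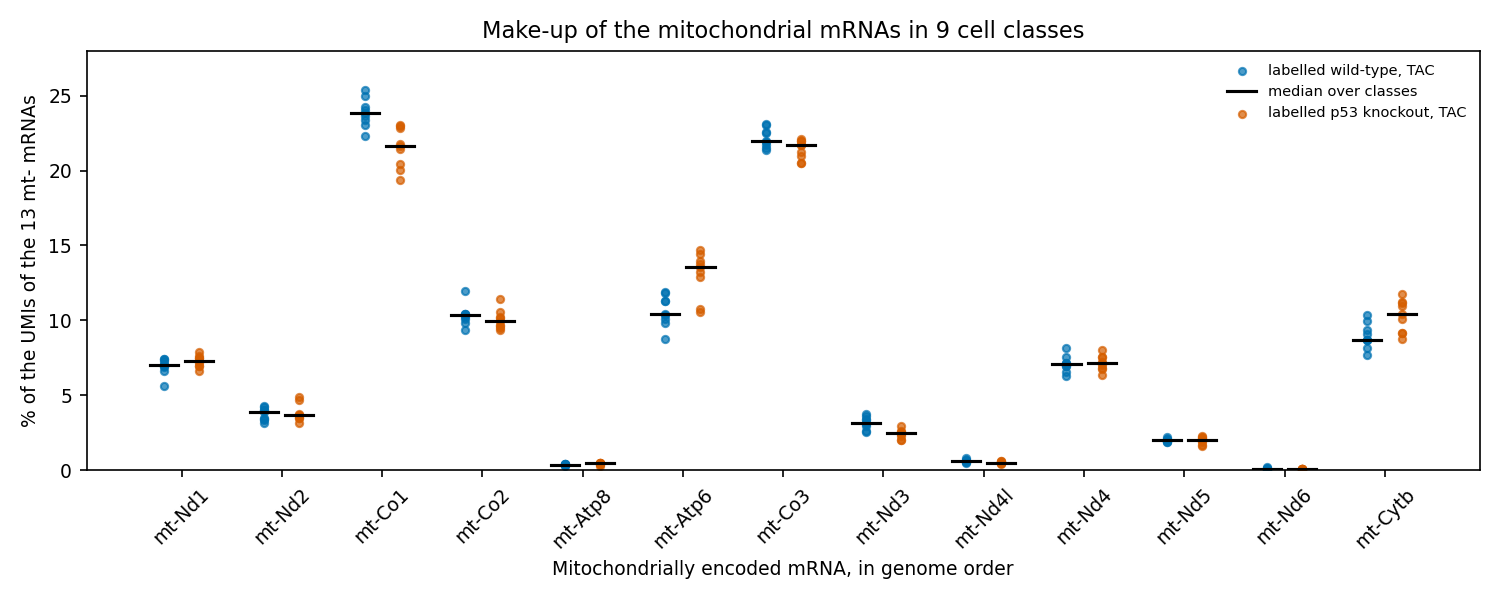
Percentage of the UMIs of the 13 mt- mRNAs (y axis) that each mRNA took (x axis, in genome order), 1 point per cell class in each of 9 classes, with colours for the libraries and black bars for the median over classes. mt-Atp6 lies higher and mt-Co1 lower in the p53-knockout-labelled library, with medians of 10.4% and 13.6% for mt-Atp6.

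Genes around the complexes gave a mixed picture across the split, where 17.6% and 26.3% of all genes were at least 2-fold higher. Cytochrome c (Cycs) and the complex III subunit Cyc1, which the naming rule misses, were higher above the split in both libraries, Cycs from 161 to 1344 CPM and from 101 to 1237 CPM. Of 12 genes of ATP and phosphate transfer, 9 and 10 were at least 2-fold higher, led in level by the ADP/ATP carrier Slc25a4 (875 to 6394 CPM and 671 to 6130 CPM). Ckmt2, the mitochondrial creatine kinase, and Slc25a3, the phosphate carrier, were at 793 and 1579 CPM and at 558 and 1720 CPM under and above the split in the wild-type-labelled library. Of further assembly genes, 14 of 39 and 15 of 32 with enough UMIs were 2-fold higher, Cox17, a copper carrier, among them, and Cox10 and Uqcc1 not. Of genes that express or maintain mitochondrial DNA, 4 of 30 and 5 of 23 were, and Lrpprc, Fastk and Mtif2 were not. Of coenzyme Q genes, 1 of 13 and 3 of 12 were. The shares of these last lists lay under those of all genes.

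The transcriptional regulators went the other way. Of 12 regulators, 0 were 2-fold higher above the split and 6 and 7 were 2-fold lower, against 16.8% and 23.1% of all genes, with medians of -0.99 and -1.76. Ppargc1a, a coactivator of mitochondrial genes, was at 874 and 283 CPM and at 1143 and 168 CPM under and above the split. Esrrg, a nuclear receptor of the same programme, was at 934 and 245 CPM and at 1087 and 137 CPM. Ppara, a receptor that drives fatty acid oxidation, was at 375 and 69.8 CPM and at 463 and 57.3 CPM. These 3 regulators were lower where the members were higher, in both libraries, as was Malat1. Over nuclear genes outside the members, longer genes also tended to lower ratios (Spearman's rho -0.28 and -0.44). The part of gene span in the ratios of the regulators was not tested.

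Between the libraries, in all cardiomyocyte-like cells, no gene of these 5 lists or of Cycs and Cyc1 was 2-fold higher. None of 12 regulators, 1 of 12 transfer genes, 2 of 13 coenzyme Q genes, 4 of 30 mitochondrial expression genes and 5 of 39 assembly genes were 2-fold lower, beside 15.4% of all genes. Ucp3, an uncoupling protein of muscle, was the transfer gene, at 215 and 64.8 CPM (-1.73), and was named after its values were seen. Coq10b, which chaperones coenzyme Q, was at 272 and 108 CPM (-1.33, -1.53 to -1.14). Coq9 and Coq8a, also of coenzyme Q synthesis, were at 198 and 129.6 CPM and at 146 and 113 CPM. Slc25a4, at 1549 and 1840 CPM, and Ppargc1a, at 802 and 934 CPM, were slightly higher.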

How the data were processed

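UMI counts per gene and cell, as deposited, came from 10x Chromium 3′ libraries, per the labels' protocols. The submitters' processing notes name Cell Ranger, Seurat and mm10 without version numbers. Barcodes with at least 200 genes and at most 50% mt- UMIs were kept. Scrublet's automatic threshold marked 0 barcodes, so the 8% with the highest scores were removed (1284 and 808). Cells were clustered with scanpy 1.11.5 and leidenalg 0.10.2 (2000 variable genes, 9 of them members, 30 components, 15 neighbours, resolution 1.0), and clusters were named from marker lists. Counts were summed per library and class. A gene was measured from 20 UMIs over the groups compared, called at 2-fold, and log2 ratios added 0.5 UMIs. Intervals are exact 95% Poisson, Clopper-Pearson or conditional binomial ones, and the ratio step was tested on simulated data. UMIs of overlapping genes on one strand may be shared (12 members).

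The members and lists were chosen with earlier results of these data known. Named are the 13 mt- mRNAs, per complex the 3 subunits and 3 assembly factors with the most UMIs and the highest and lowest log2 ratio from 100 UMIs, the isoform families, and up to 3 genes with the most UMIs in each pathway list. Other genes were named after their values were seen. Alternatives changed the split, filters, gating, scaling and cells used.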

Additional observations from a re-analysis of the deposited data

How the results depend on the processing

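No paired analysis was possible because each genotype had 1 library, and for the same reason no setting leaves out a replicate. Leaving out a cluster or shared barcodes was chosen after seeing the data. All values are p53 knockout over wild-type as labelled, in log2, unless given as percentages, and the cause of each change was not tested. For the nuclear sum at or under the split (-0.52), a split at 5% gave -0.72, 20% -0.24, at least 500 genes per cell -0.57, a marker gate -0.55, no cells with atrial UMIs -0.58, cells of 500 to 1500 UMIs -0.17, median-of-ratios scaling -0.44, equal weight per cell -0.29, no cluster 8 -0.74 and no cluster 14 0.22. For the nuclear sum above it (-0.10), the values in that order of settings were 0.054, -0.17, -0.055, -0.15, -0.062, -0.057, -0.16 and -0.052. There, keeping doublets gave -0.15, CPM of all UMIs -0.13 and variable genes without members -0.067, and leaving out cluster 8 gave no value. For the nuclear sum over all cells (0.14), 500 genes gave 0.23, the gate -0.20, no atrial cells 0.056, 500 to 1500 UMIs 0.0092, all-UMI CPM 0.10, median-of-ratios 0.21, equal weight 0.34, no cluster 8 -0.76, no cluster 14 1.25 and no shared barcodes 0.16. For the mt- sum over all cells (0.55), keeping doublets gave 0.58, 500 genes 0.69, the gate -0.076, no atrial cells 0.43, 500 to 1500 UMIs -0.043, all-UMI CPM 0.51 and equal weight 0.68. Above the split the mt- sum was -0.10 with the gate and -0.30 at 500 to 1500 UMIs. The member median turned to 0.049 above a 5% split, and over all cells to -0.26 with the gate, -0.0020 without atrial cells and -0.0086 at 500 to 1500 UMIs. Cells above the split were 21.6% and 36.8% at 5%, 8.91% and 17.3% at 20%, 14.4% and 34.7% with 500 genes, and 13.8% and 20.1% with the gate. They were 14.3% in the wild-type-labelled library with doublets kept and 15.5% in the other at 500 to 1500 UMIs. The Cox6a2 share in the wild-type-labelled library was 84.6% with 500 genes, 84.0% with the gate and 87.4% at 500 to 1500 UMIs, and 85.2% in the other with the gate. The Cox7a1 share in the p53-knockout-labelled library was 43.6% with the gate and 52.7% at 500 to 1500 UMIs. The Cox8b share was 63.2% with 500 genes in the wild-type-labelled library and 56.7% at 500 to 1500 UMIs in the other.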
